A study of Bos taurus with 10 samples.

Results

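Homeobox, PAX and T-box genes encode transcription factors that lay out the body axis and the organs of the later embryo. HOX proteins set position along the axis, PAX, LHX, NKX, SIX-type, IRX, EN and GBX proteins act in the nervous system, eye, heart, kidney and endocrine organs, and T-box proteins act in limb, heart and mesoderm. Most of these genes are held silent before gastrulation, in large part by Polycomb complexes. The question was whether they were read more often in single bovine blastocysts that had lost *SOX2*. Members were taken by gene symbol alone, from the families HOXA to HOXD, PAX, LHX, NKX, SIX-type, TBX, IRX, EN, GBX and EMX. The table of expression held 71 such genes among 20112. The same symbols name 100 genes in the RefSeq table of a later bovine assembly, and the other 29 of these are not analysed here, among them *EMX1* and *EMX2*, which leaves no EMX gene.

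Early blastocysts of 2 groups, 5 WT and 5 *SOX2* KO embryos, were sequenced one by one with Smart-seq2, which copies polyadenylated RNA. WT embryos were injected as zygotes with mRNA of the cytosine base editor BE3 alone. *SOX2* KO embryos received BE3 mRNA and a mixture of *SOX2* sgRNAs, which place premature stop codons in the gene. Both groups therefore carried the editor, all embryos were produced in vitro, and the labels give an age of 7.0 days after fertilization for all of them, while the methods of the study name a somewhat later time. An injected embryo may be mosaic for the edit, and the stop codons leave the transcript in place, so the RNA of *SOX2* does not check the labels. The study describes genotyping every sequenced blastocyst from part of its cDNA, and those genotypes are not analysed here. *SOX2* had normalized read counts of 56.5, 93.4, 83.5, 73.0 and 84.4 in WT and of 39.0, 26.4, 64.0, 82.1 and 71.5 in *SOX2* KO embryos, and the groups overlapped. Whole blastocysts were sequenced, so fewer cells of a type cannot be told apart from less RNA per cell.

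Values are normalized read counts, that is the reads of a gene divided by the size factor of the embryo. They are not corrected for gene length, so they are compared between embryos and not between genes. The WT embryos are named nc1 to nc5 and the *SOX2* KO embryos ko1 to ko5, and values are given in that order. The embryos had 2223670 to 5134855 reads on genes, and 1 read was worth 0.590 to 1.48 on the normalized scale. At most 3 reads in an embryo was taken as the floor of detection. The share of the 18S gene *RN18S1* was between 26.4% and 37.0% in the WT and between 32.5% and 44.95% in the *SOX2* KO group. At least 1 read was found for 15919 to 18092 genes in WT and for 17987 to 19813 genes in *SOX2* KO embryos. Blastocyst markers were present in all embryos: the summed normalized read counts of 8 trophectoderm markers, *KRT8* and *KRT18* among them, were 24092 to 35509 in the WT group and 32794 to 46289 in the *SOX2* KO group. Those of 5 epiblast markers, *NANOG* and *POU5F1* among them, were 1870 to 2395 in the WT group and 813 to 1140 in the *SOX2* KO group, with 4 of 5 called lower, and those of 4 hypoblast markers were 993 to 1395 and 889 to 1009, with 1 of 4 called lower. Markers of other sources were read as well: 7 cumulus and granulosa cell markers summed to 32.6 to 84.5 in the WT group and 57.0 to 98.0 in the *SOX2* KO group, with 0 of 7 called. The 3 sperm markers summed to 0 to 21.2 in the WT group and 0 to 10.5 in the *SOX2* KO group, with 1 of 3 called higher, *AKAP4*. The 5 blood and fibroblast markers summed to 62.9 to 108 in the WT group and 140 to 278 in the *SOX2* KO group, 4 of 5 were called higher, and none was at 0 in all embryos. These calls stand beside 8.93% of all tested genes called higher and 1.16% called lower by limma. The part of these markers and of the *RN18S1* share in the results on the regulators was not tested, apart from a fit with the share as a covariate.

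Most of the 71 genes were near silence in both groups. The median of their mean normalized read counts was 3.11, against 16.8 over all genes of the table, and 56 of the 71 had a mean under 10. *TBX3* was the exception with a mean of 813.6. It alone supplied 70.3% of the summed normalized read counts of the 71 genes in WT and 56.3% in *SOX2* KO embryos. Of the 355 pairs of a member and a WT embryo, 92 had no read and 141 had more than 3 reads. Of the 355 pairs in *SOX2* KO embryos, 36 had no read and 199 had more than 3 reads. The share of pairs without a read was 25.9% in WT and 10.1% in *SOX2* KO embryos for the members, and 15.5% and 6.02% over all genes of the table. By gene, 33 members were read in more *SOX2* KO than WT embryos, 34 in as many and 4 in fewer. Genes with few reads moved the same way in general. Of the 56 members with a mean under 10, 18 were read in all 5 WT and 33 in all 5 *SOX2* KO embryos. Of all 8778 genes with a mean under 10, these numbers were 2392 and 4664.

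Differences between the groups were tested per gene with limma on log2(normalized read count + 1), and the 20056 genes whose mean reached 1 were tested, all 71 members among them. A gene was called where its p, adjusted over all of these genes after Benjamini and Hochberg, was no larger than 0.05 and its level differed at least 2-fold. The log2 ratios (log2 fold changes) are on that scale, which makes those of genes with few reads too small, and SE is their standard error. Higher in *SOX2* KO embryos were 5 of the 71 members, which is 7.04%, while 8.93% of all tested genes were called higher. The 5 genes were *NKX6-2*, *IRX4*, *IRX6*, *PAX2* and *LHX2*. Lower were 0 members by limma, DESeq2 and edgeR, while these called 1.16%, 1.19% and 1.49% of all genes lower. At an unadjusted p under 0.05 in limma, 0 members were lower and 19 higher, where 8.37% and 24% of all genes were. A share of 7.04% is near the background, and the count is therefore no result about these families as a group. Of all genes called, 88.5% were higher in *SOX2* KO, and after quantile normalization 58.5%, with 1 member called higher and 1 lower there, *NKX6-2* and *HOXA13*, beside 3.14% and 2.23% of all genes. Weighting the embryos by their quality in limma called 12 members higher, beside 16.1% of all genes.

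*NKX6-2*, a homeobox repressor of the ventral neural tube and of oligodendrocytes, had the largest fitted rise of the members. Its normalized read counts were 2.29, 1.48, 1.99, 3.11 and 1.18 in the WT embryos and 12.2, 14.5, 41.9, 10.7 and 19.6 in the *SOX2* KO embryos. Every *SOX2* KO embryo lay above every WT embryo, and the embryo ko3 was far above the other 4. The means were 2.01 ± 0.750 and 19.8 ± 12.8 (SD, n = 5 each), a log2 ratio of 2.65 (SE 0.49, adjusted p by limma = 0.00212). The reads behind them were 12 in WT and 88 in *SOX2* KO embryos. It was called in all 10 fits made with 9 embryos. Its paralog *NKX6-3* had 1 read in WT and 10 in *SOX2* KO embryos and was not called.

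*IRX4*, an Iroquois gene of the heart ventricles, had normalized read counts of 2.29, 1.48, 3.98, 2.33 and 0.590 in WT and 12.2, 11.9, 15.1, 10.7 and 4.61 in *SOX2* KO embryos. The groups did not overlap, and ko5 was the lowest of its group, near the highest WT embryo. It rose from 2.13 ± 1.25 to 10.9 ± 3.88 (SD, n = 5 each), a log2 ratio of 1.94 (SE 0.51, adjusted p by limma = 0.0187). *IRX6*, another Iroquois gene, known from the retina, had 0, 0, 0, 2.33 and 0 in WT and 7.79, 3.96, 5.81, 0.821 and 6.92 in *SOX2* KO embryos. The groups overlapped, since ko4 lay below the only WT embryo with reads. *IRX6* had 3 reads over the WT embryos and 22 over the *SOX2* KO embryos, a ratio of 9.52 in level with a 95% exact counting interval of 2.86 to 49.7. Only genes with at least 11 reads are listed, so a gene with 3 WT reads had to have at least 8 in *SOX2* KO embryos. That alone gives a ratio of 3.46, as in *LHX4*, and the interval does not account for it. Its log2 ratio was 2.07 (SE 0.58, adjusted p by limma = 0.0244). The call of *IRX6* was made in 4 of 10 fits made with 9 embryos. It was lost without ko1, ko3, ko5, nc1, nc2 or nc5, with adjusted p by limma of 0.0547 to 0.0686, and DESeq2 and edgeR gave it adjusted p of 0.0503 and 0.0571. *IRX2*, *IRX3* and *IRX5* were not called, with log2 fold changes of 0.29, 0.78 and 0.44.

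*PAX2*, which acts in kidney and optic stalk, had normalized read counts of 0, 0, 1.99, 4.66 and 0.590 in WT and 11.1, 10.6, 10.5, 1.64 and 15.0 in *SOX2* KO embryos. In ko4 it was within the WT range, and in the other 4 *SOX2* KO embryos it was above it. The means were 1.45 ± 1.97 and 9.76 ± 4.91 (SD, n = 5 each), a log2 ratio of 2.26 (SE 0.63, adjusted p by limma = 0.0236). It was called in 5 of 10 fits made with 9 embryos and lost its call without ko1, ko3, ko5, nc1 or nc2, with adjusted p by limma of 0.0537 to 0.0720. *LHX2*, a LIM-homeobox gene of forebrain and eye, was better covered, with 68 reads in WT and 142 in *SOX2* KO embryos. Its normalized read counts were 10.7, 8.90, 17.9, 10.9 and 9.44 in WT and 18.9, 25.1, 36.0, 44.4 and 24.2 in *SOX2* KO embryos. The groups did not overlap, although nc3 came close to ko1. *LHX2* rose from 11.6 ± 3.64 to 29.7 ± 10.3 (SD, n = 5 each), a log2 ratio of 1.27 (SE 0.35, adjusted p by limma = 0.0223). It and *IRX4* were each called in 9 of 10 fits made with 9 embryos, and both lost their call without ko3, with adjusted p by limma of 0.0599 and 0.0503.

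With the share of *RN18S1* reads of the embryo as a covariate in limma, 0 members were called. The adjusted p of *NKX6-2*, *IRX4*, *LHX2*, *IRX6* and *PAX2* was then 0.0889, 0.199, 0.225, 0.331 and 0.405, and 0.683% of all genes were called higher. The share was higher on average in *SOX2* KO embryos, so this fit and the comparison of groups use partly the same difference. DESeq2 and edgeR on the whole reads each called 5 members higher, at 9.16% and 8.41% of all genes, and 4 of the 5 were those called by limma. In both, *TBX5* took the place of *IRX6*.

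**Figure D1:**
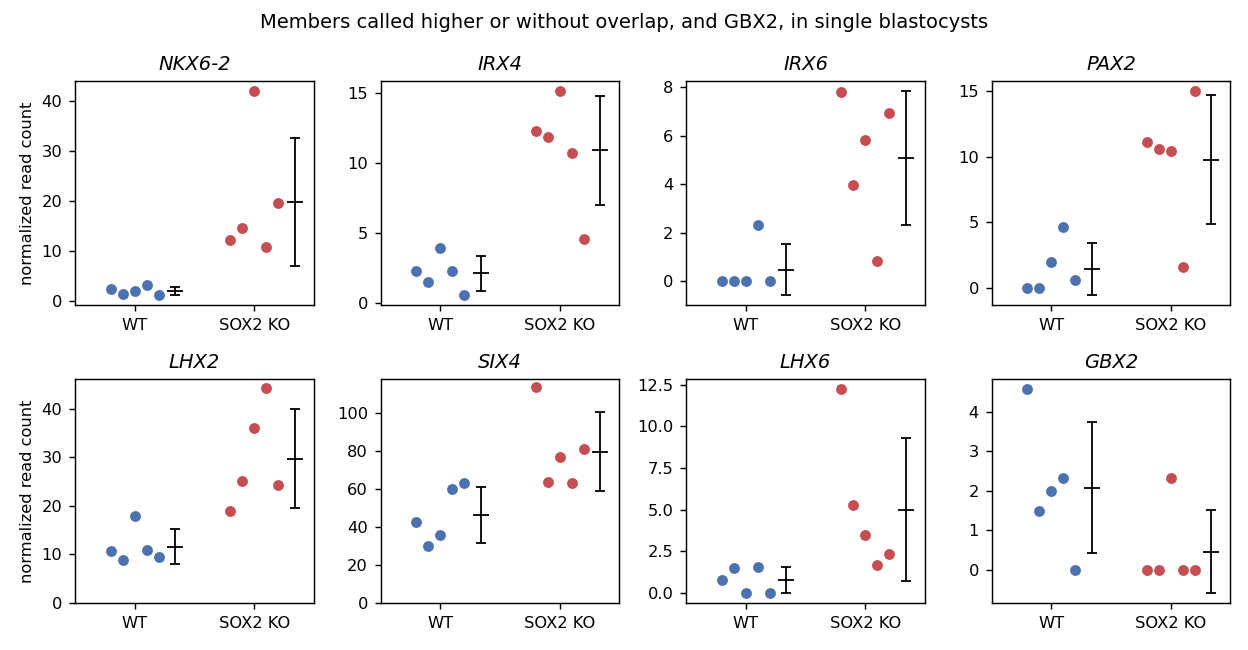
Normalized read counts (vertical axes, from 0 or just below it) of 8 members in the 5 WT (blue) and 5 *SOX2* KO (red) embryos, with the mean and SD of each group in black. For *NKX6-2*, *IRX4*, *LHX2*, *SIX4* and *LHX6* no WT point reaches a *SOX2* KO point, while *IRX6*, *PAX2* and *GBX2* overlap.

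A further member, *SIX4*, reached the adjusted p but less than a 2-fold difference. SIX4 acts with EYA proteins in muscle and kidney. Its normalized read counts were 42.7, 29.7, 35.8, 59.8 and 63.2 in WT and 114, 63.4, 76.7, 63.3 and 80.7 in *SOX2* KO embryos. The groups did not overlap, but nc5 and ko4 were nearly equal. The log2 ratio was 0.79 (SE 0.25, adjusted p by limma = 0.0394), and edgeR gave an adjusted p of 0.0707. At the adjusted p alone 6 members were higher and 0 lower, where 10.4% and 3.2% of all genes were. *LHX6*, a gene of cortical interneurons, had 0.763, 1.48, 0, 1.55 and 0 in WT and 12.2, 5.28, 3.49, 1.64 and 2.31 in *SOX2* KO embryos. Its groups did not overlap, but nc4 and ko4 were nearly equal, on 4 and 22 reads in all (log2 fold change 1.64, SE 0.57, adjusted p by limma = 0.0588). With these 2 genes, 5 members had no overlap in the direction of *SOX2* KO, where 6.41% of all tested genes had none. No member was without overlap in the other direction, where 2.76% of all genes were.

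The fitted log2 fold change was above 0 for 63 of the 71 members, with a median of 0.75. Over all tested genes it was above 0 for 62.9%, with a median of 0.25, and over the 8722 genes whose mean lay from 1 to under 10 it was above 0 for 83.7%, with a median of 0.93. The 56 members in that range had a median of 0.79, and 51 of them were above 0. In that range 3 of the 56 members (5.36%) and 14.1% of all genes were called higher. Where the mean lay from 10 to under 100, 2 of 14 members (14.3%) and 6.76% of all genes were called higher. There 12 of the 14 members (85.7%) and 52.8% of all genes were above 0, with medians of 0.37 and 0.04. The direction was lost with quantile normalization, which moved the median of all genes by -0.27 to -0.02. The members were then above 0 in 34 and below it in 37 cases, with a median of -0.04. Other settings kept the direction: 62 of the 71 were above 0 with equal totals, 63 with equal totals without *RN18S1*, 63 by DESeq2, 62 by edgeR and 56 with the *RN18S1* share as a covariate.

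**Figure D2:**
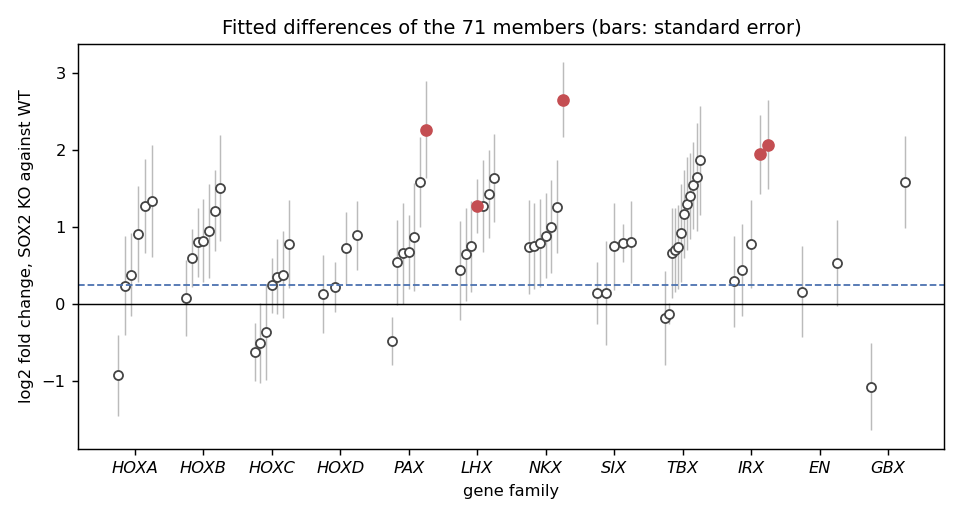
Fitted log2 fold change of each of the 71 members (vertical axis, bars give the standard error) by family, with the 5 called members filled in red and the median of all tested genes, 0.25, as a dashed line. The points lie mostly above 0 in every family other than *HOXC* and *GBX*, which are mixed, and their errors are wide. After quantile normalization the median over the members is -0.04.

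At least 1 read was found for 51, 47, 56, 56 and 53 of the 71 members in the WT embryos and for 69, 55, 66, 62 and 67 in the *SOX2* KO embryos. The groups overlapped, since ko2 had 1 gene fewer than nc3 and nc4. The means were 52.6 ± 3.78 and 63.8 ± 5.54 (SD, n = 5 each). At an equal depth of 2223670 reads, that of the smallest library, the expected means were 47.6 and 59.9. At the full depth of each embryo, with more than 3 reads required, the means were 28.2 and 39.8. No p is given for these counts, because the members were chosen with earlier results of these embryos known.

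The same was seen in genes with few reads outside these families. Of the 56 members with a mean under 10, 64.3%, 57.1%, 73.2%, 73.2% and 67.9% had a read in the WT embryos and 96.4%, 71.4%, 91.1%, 83.9% and 92.9% in the *SOX2* KO embryos. Of all other genes with a mean under 10, 65.9%, 53.2%, 77.1%, 56.2% and 72.1% had a read in WT and 96.6%, 76.0%, 87.6%, 77.7% and 93.8% in *SOX2* KO embryos. The means of the members were 67.1% and 87.1%, and those of the other genes 64.9% and 86.4%. The *SOX2* KO embryo ko1 was the embryo with the most members detected and with the most genes detected, and it held the highest value of all 10 embryos for 27 of the 71 members. The table lists only genes with at least 11 reads over the 10 embryos. Of the members, 20 reached that number only with the reads of *SOX2* KO embryos, 4 only with those of WT embryos, 39 in either group and 8 only with both together. The share that entered only through *SOX2* KO reads was 28.2% of the members and 18.5% of all genes. A member that entered through one group had to be higher there, so the counts over the listed members are descriptions.

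**Figure D3:**
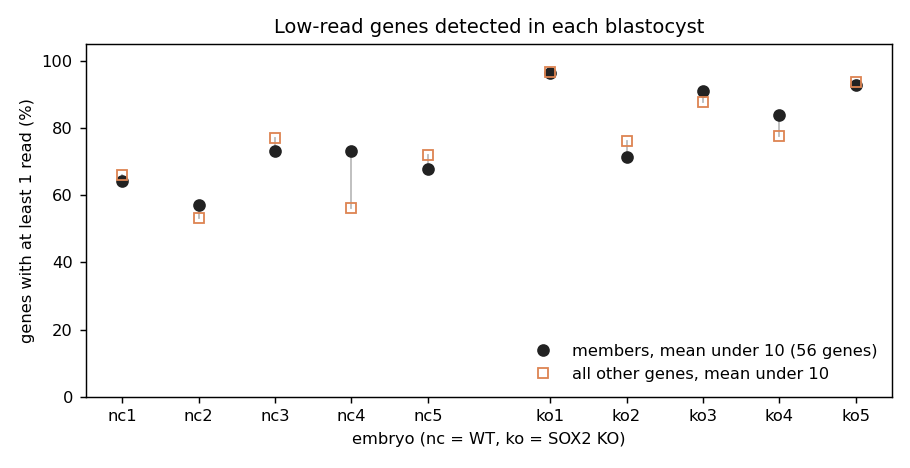
Share of genes with at least 1 read in each embryo (vertical axis, percent) for the 56 members with a mean under 10 (black circles) and for all other genes with a mean under 10 (orange squares). Both shares are higher in most *SOX2* KO embryos and follow each other, with the widest gap in nc4, at 73.2% of members and 56.2% of other genes.

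HOX genes, which are switched on in order along the axis from gastrulation onward, made up 24 of the 71 members. None of the 24 was called in either direction by limma, DESeq2 or edgeR. Of all tested genes, limma called 8.93% higher and 1.16% lower, so the count of 0 in 24 is no result about HOX genes as a group. Quality weights in limma called *HOXA6* and *HOXB6* higher and quantile normalization *HOXA13* lower. Their log2 fold changes ran from -0.93 for *HOXA13* to 1.51 for *HOXB6*, with 20 above 0, a median of 0.49 and, after quantile normalization, 10 above 0. The 24 genes had 959 reads over the WT embryos and 1048 over the *SOX2* KO embryos, 87 and 114 in the *HOXA* cluster, 224 and 310 in *HOXB*, 389 and 344 in *HOXC* and 259 and 280 in *HOXD*. Their summed normalized read counts were 122, 131, 220, 177 and 155 in WT and 236, 174, 249, 230 and 242 in *SOX2* KO embryos, and the groups overlapped. HOX genes were already read in WT blastocysts: 19 to 23 of the 24 had a read in each WT embryo, and 22 to 24 in each *SOX2* KO embryo.

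The anterior genes of the clusters, in paralog groups 2 to 4, had log2 fold changes of 0.38 to 1.21, with a median of 0.81 over 8 genes, and a median of 0.12 after quantile normalization. The 9 genes of paralog groups 5 to 8 had a median of 0.80, which was -0.07 after quantile normalization. The 7 genes of paralog groups 9 to 13 had a median of 0.22, which was -0.58 after quantile normalization. This split was made after the values were seen and was not tested. *HOXC13* and *HOXA13*, the posterior end of their clusters, were below 0. *HOXC13* had normalized read counts of 19.1, 11.9, 22.9, 13.99 and 18.3 in WT and 13.4, 6.60, 12.8, 9.86 and 11.5 in *SOX2* KO embryos, with overlap at nc2 (log2 fold change -0.62, SE 0.37, adjusted p by limma = 0.249). *HOXA13* had 1.53, 4.45, 7.95, 2.33 and 2.95 in WT and 1.11, 2.64, 1.16, 0.821 and 1.15 in *SOX2* KO embryos (log2 fold change -0.93, SE 0.53, adjusted p by limma = 0.227), and -1.81 after quantile normalization (adjusted p by limma = 0.0195).

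**Figure D4:**
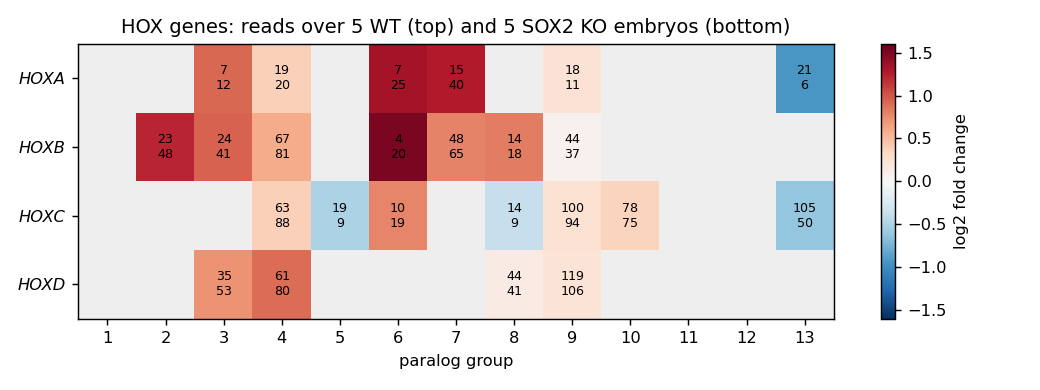
HOX genes by cluster (rows) and paralog group (columns). The colour gives the fitted log2 fold change of *SOX2* KO against WT and the numbers the reads over the 5 WT (top) and 5 *SOX2* KO embryos (bottom), with genes not analysed here in grey. No gene was called by the main fit, which called 8.93% of all tested genes higher and 1.16% lower. Both genes of paralog group 13 are below 0.

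Among the HOX genes with the most reads, *HOXD9* had normalized read counts of 17.6, 13.3, 32.8, 20.2 and 16.5 in WT and 17.8, 19.8, 23.3, 24.6 and 28.8 in *SOX2* KO embryos. *HOXC9* had 9.92, 22.2, 15.9, 24.9 and 14.2 in WT and 14.5, 15.8, 25.6, 16.4 and 31.1 in *SOX2* KO embryos. The groups of both genes overlapped through most of their range, with log2 ratios of 0.22 and 0.24 (adjusted p by limma = 0.662 and 0.672). *HOXC10* had 6.87, 8.90, 13.9, 6.99 and 23.6 in WT and 17.8, 21.1, 24.4, 15.6 and 3.46 in *SOX2* KO embryos, so that ko5 was the lowest of all 10 (log2 fold change 0.36, adjusted p by limma = 0.646). *HOXB4* had 7.63, 10.4, 20.9, 9.32 and 10.03 in WT and 13.4, 13.2, 20.9, 19.7 and 19.6 in *SOX2* KO embryos, where only nc3 of the WT embryos entered the range of the other group (log2 fold change 0.59, adjusted p by limma = 0.283). *HOXC4* had 9.16, 8.90, 18.9, 10.1 and 7.67 in WT and 20.04, 1.32, 26.7, 22.2 and 21.9 in *SOX2* KO embryos. Its embryo ko2 had 1 read, and the other 4 *SOX2* KO embryos were above all WT embryos (log2 fold change 0.38, SE 0.56, adjusted p by limma = 0.671). Strand was not given for the counting, so reads of antisense transcripts in the HOX clusters may be included.

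*TBX3*, a T-box repressor known for its part in mouse pluripotent cells and in limb and heart, was the only member with a high level in both groups. Its normalized read counts were 881, 798, 961, 741 and 871 in WT and 745, 721, 800, 782 and 838 in *SOX2* KO embryos. The groups overlapped, and ko2 was the only *SOX2* KO embryo below all WT embryos. The means were 850 ± 84.1 and 777 ± 46.0 (SD, n = 5 each), a log2 ratio of -0.13 (SE 0.14, adjusted p by limma = 0.550). The other 11 T-box genes had 121 reads over the WT embryos and 248 over the *SOX2* KO embryos. Of these 11, limma called 0, beside 8.93% of all tested genes called higher and 1.16% lower. *TBX5*, a gene of heart and forelimb, had 1 read in 1 WT embryo and 25 reads in 3 *SOX2* KO embryos, with normalized read counts of 5.57, 10.6, 0, 0 and 13.8 in ko1 to ko5. It was at 0 in 2 *SOX2* KO embryos, so the groups overlapped. Its ratio in level was 32.5 with a 95% exact counting interval of 5.31 to 1332, and its adjusted p was 0.0804 in limma, 0.0201 in DESeq2 and 0.0288 in edgeR. With 1 WT read, *TBX5* reached the 11 reads of a listed gene only through *SOX2* KO reads, so a ratio above 1 was fixed in advance. *TBX15* had 3 reads in 1 WT embryo and 24 reads in 4 *SOX2* KO embryos (adjusted p by limma = 0.112). *TBX19*, known from the pituitary, had 15 and 13 reads.

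In the PAX family *PAX8* had the highest counts. *PAX8*, a gene of thyroid and kidney, had normalized read counts of 32.8, 28.2, 43.8, 45.1 and 34.2 in WT and 45.7, 30.4, 19.8, 13.96 and 28.8 in *SOX2* KO embryos. The embryo ko1 was the highest of all 10, while ko3 and ko4 were below all WT embryos, so the groups overlapped (means 36.8 ± 7.31 and 27.7 ± 12.1, SD, n = 5 each, log2 fold change -0.48, SE 0.31, adjusted p by limma = 0.289). *PAX4*, a gene of pancreatic endocrine cells, had 7 reads in WT and 24 in *SOX2* KO embryos (log2 fold change 1.59, adjusted p by limma = 0.0718). *PAX5*, the B cell regulator, had 17 and 46 reads, of which ko1 and ko5 held most, and was not called (adjusted p by limma = 0.397). *PAX3*, *PAX6* and *PAX9* had log2 fold changes of 0.54, 0.66 and 0.68 with adjusted p by limma of 0.521, 0.504 and 0.335.

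*GBX2*, which marks the hindbrain boundary and acts downstream of STAT3 in mouse embryonic stem cells, was the member with the lowest fitted log2 fold change. It had normalized read counts of 4.58, 1.48, 1.99, 2.33 and 0 in WT and 0, 0, 2.33, 0 and 0 in *SOX2* KO embryos. It was read in 4 of 5 WT embryos and in 1 of 5 *SOX2* KO embryos, on 12 and 2 reads in all. The log2 ratio was -1.07 (SE 0.57, adjusted p by limma = 0.193), and *GBX2* was not called. Its paralog *GBX1* had 15 and 40 reads (log2 fold change 1.59, SE 0.60, adjusted p by limma = 0.0778). *SIX5*, a gene of muscle and lens, had 19.8, 11.9, 38.8, 31.1 and 19.5 in WT and 21.2, 25.1, 64.0, 11.5 and 23.1 in *SOX2* KO embryos, with ko3 far above the others (log2 fold change 0.14, adjusted p by limma = 0.844). *EN1* and *EN2*, the midbrain genes, had log2 fold changes of 0.16 and 0.53 and were not called.

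**Figure D5:**
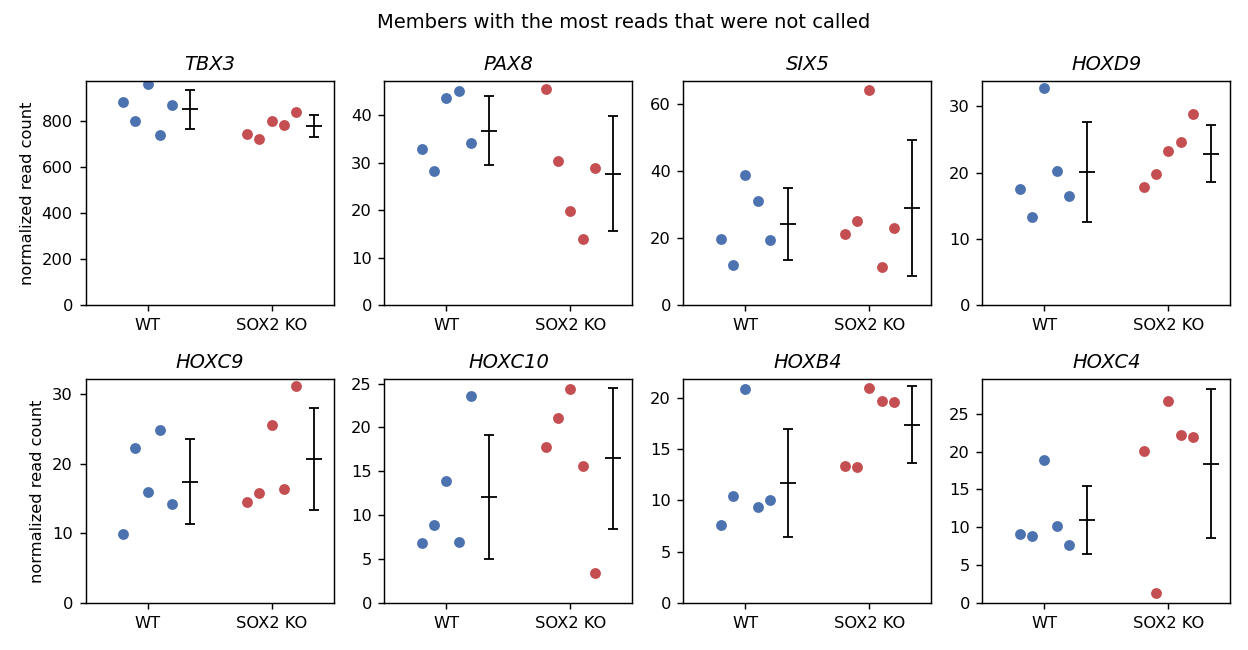
Normalized read counts (vertical axes) of 8 of the 10 members with the highest means, those that passed no threshold, in the 5 WT (blue) and 5 *SOX2* KO (red) embryos, with the mean and SD of each group in black. The groups overlap in every panel, and single embryos stand apart, such as ko3 for *SIX5* and ko2 for *HOXC4*.

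In the LHX and NKX families most genes had few reads in WT embryos, with *LHX2* the best covered. Over the 7 LHX genes there were 92 reads in WT, 68 of them of *LHX2*, and 219 in *SOX2* KO embryos, with all 7 log2 fold changes above 0 (0.44 to 1.64), 4 of 7 above 0 after quantile normalization, and 1 gene called. Over the 7 NKX genes there were 62 and 185 reads, with all 7 above 0 (0.74 to 2.65), 5 of 7 after quantile normalization, and 1 called. Of all tested genes 8.93% were called higher, so 1 of 7 is no result about either family. *NKX2-1*, the regulator of thyroid, lung and ventral forebrain, was the only member with no read in any WT embryo. In *SOX2* KO embryos it had 2.23, 0, 1.16, 0 and 10.4, that is 12 reads in 3 embryos, most of them in ko5. Its mean there, 2.75, was at the floor of 3 reads in each WT embryo (2.76), so no fold is given (adjusted p by limma = 0.153, edgeR 0.0533). *LHX9*, a gene of the gonad and limb, had 1 read in WT and 13 in 4 *SOX2* KO embryos, a ratio of 16.9 with a 95% exact counting interval of 2.53 to 717 (adjusted p by limma = 0.0938). Such intervals cover counting error only, since the reads carry no molecular identifiers and 1 molecule may give several reads. They were made only for members with at most 3 reads over the WT embryos. Because only genes with at least 11 reads are listed, a ratio above 1 was fixed in advance for these members.

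HOX, PAX, SIX-type and LHX proteins bind DNA together with cofactors, whose genes were compared in the same way. The counts of these short lists stand beside 8.93% of all tested genes called higher and 1.16% called lower by limma. Of the 9 TALE cofactors of HOX proteins, 1 was called higher and 1 lower. *MEIS2*, a HOX cofactor, fell from 14.3 ± 9.19 to 2.38 ± 2.24 (SD, n = 5 each), with values of 9.92, 20.8, 7.95, 27.2 and 5.90 in WT and 3.34, 0, 1.16, 1.64 and 5.77 in *SOX2* KO embryos. The groups did not overlap, but nc5 and ko5 were nearly equal (log2 fold change -2.25, SE 0.59, adjusted p by limma = 0.0174). *PKNOX2* rose from 1.16 ± 0.783 to 9.04 ± 6.62 (SD, n = 5 each; log2 fold change 2.05, adjusted p by limma = 0.0241). Of 8 partners of SIX-type and PAX proteins *DACH1* alone was called, and of 10 LIM cofactors of LHX proteins *SSBP4* alone, both higher. Of the 5 Groucho corepressors, 0 were called in either direction, with a median log2 fold change of 0.13. Of 20 Polycomb and Trithorax genes, which hold such regulators silent or active, 0 were called in either direction by limma, with a median log2 fold change of -0.05. *JARID2*, a partner of Polycomb repressive complex 2, passed the adjusted p and missed the 2-fold difference. It had normalized read counts of 292, 343, 312, 222 and 241 in WT and 170, 121, 163, 191 and 133 in *SOX2* KO embryos. Every *SOX2* KO embryo lay below every WT embryo, and the means were 282 ± 49.9 and 156 ± 28.5 (log2 fold change -0.85, SE 0.17, adjusted p = 0.00442 by limma and 0.000321 by DESeq2). *SUZ12* and *BMI1*, subunits of Polycomb complexes, had log2 fold changes of -0.43 and -0.68, with adjusted p of 0.0543 and 0.0549 by limma and of 0.0281 and 0.0382 by DESeq2. *EZH2*, the methyltransferase, had 146 ± 11.2 and 151 ± 36.3 (SD, n = 5 each). Of the 20 genes 9 were above 0, among them *CBX7*, *PCGF2* and *KMT2D*. Their log2 fold changes were 0.95, 0.91 and 0.70, with adjusted p by limma of 0.0771, 0.112 and 0.0641. In the other lists *PAXIP1* (log2 fold change -0.96, adjusted p by limma = 0.0296) and *MGA* (-0.68, adjusted p by limma = 0.00606) likewise passed the adjusted p alone.

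Of the 44 tested homeobox and T-box genes outside the families chosen, 6 (13.6%) were called higher and 2 (4.55%) lower, where 8.93% and 1.16% of all genes were. Those called higher included genes known from placenta and trophoblast. *DLX3* rose from 52.7 ± 26.4 to 150 ± 39.2 (SD, n = 5 each; log2 fold change 1.61, adjusted p by limma = 0.00283) and *DLX4* from 42.7 ± 14.6 to 88.0 ± 13.2 (log2 fold change 1.09, adjusted p by limma = 0.00968), both without overlap. *MSX1* had 6.87, 8.90, 1.99, 7.77 and 20.1 in WT and 39.0, 44.9, 75.6, 23.0 and 18.4 in *SOX2* KO embryos (log2 fold change 2.11, adjusted p by limma = 0.00808), with nc5 above ko5. *MSX1*, *OTX2* and *GSC* were the 3 genes of these lists still called with the *RN18S1* share as a covariate. *DRGX*, *LMX1A* and *GSC2* rose on few reads, with means of at most 0.878 in WT and of 3.57 to 6.28 in *SOX2* KO embryos. *OTX2* and *GSC*, head and organizer genes also read in the blastocyst, fell. *OTX2* went from 318 ± 28.8 to 71.2 ± 35.3 (SD, n = 5 each; adjusted p by limma = 4.01e-05), without overlap. *GSC* had 32.8, 29.7, 42.8, 28.0 and 23.0 in WT and 7.79, 5.28, 15.1, 11.5 and 8.07 in *SOX2* KO embryos, without overlap (log2 fold change -1.66, SE 0.36, adjusted p by limma = 0.00637). *DLX3*, *MSX1*, *OTX2* and *GSC* were called in all 10 fits with an embryo left out, *MEIS2* and *DLX4* in 9 of them, *PKNOX2* in 6, and *SSBP4*, *DRGX*, *LMX1A*, *DACH1* and *GSC2* in 3 or 4.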

How the data were processed

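The table the authors deposited holds a normalized signal: read counts scaled per embryo by size factors from DESeq2. Per the paper and the labels, reads were trimmed with Trimmomatic, aligned by HISAT2 (assembly ARS-UCD1.2) and assigned to genes by featureCounts; annotation release and strand setting are not given in the sources used here. All 201120 values (100%) divided without remainder by a step found for the embryo (tolerance 1e-06), which gave the reads. For the WT embryo nc3 the step was 0.994, so near 1 that its normalized values hardly differ from the reads; its reads were recovered in the same way and entered only the count tests and the descriptions of reads and detection.

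limma (3.58.1, lmFit and eBayes with a trend) was run on log2(normalized read count + 1) in R 4.3.3. DESeq2 (1.42.0) and edgeR (4.0.16, quasi-likelihood) on the recovered reads were alternatives. The fits were first tested on simulated data in which 200 genes were changed 4-fold. Of these, limma recovered 186, DESeq2 189 and edgeR 186, with 7, 9 and 10 false calls. All 200 had a mean of at least 10, above that of most members, so recovery at the level of most members was not tested. Python 3.11.15 with numpy 2.4.6, pandas 2.3.3, scipy 1.17.1 and matplotlib 3.10.9 was used for the rest. Columns nc1 to nc5 matched the control labels by number; ko1 to ko5 name the *SOX2* KO group only, because its labels carry other replicate numbers. The labels do not say which embryos share a culture, so p-values measure the spread between embryos.

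The members and lists were chosen with earlier results of these data known. Values in every embryo are given for called members, the 10 members with the highest means, members without overlap, *GBX2*, *TBX3* and *SOX2*; for *RN18S1*, planned with these, the share of reads is given as ranges. *HOXA13*, *HOXC13*, *TBX5*, *NKX2-1* and the listed homeobox, cofactor and Polycomb genes given by embryo were added after the values were seen. Alternatives were pseudocounts of 0.1 and 5, no filter or a mean of at least 5, equal totals with and without *RN18S1*, quantile normalization, sample quality weights, the *RN18S1* covariate, the count tests, and fits without 1 of the embryos. No coordinates or sequences are given, because the RefSeq gene table used for symbols describes ARS-UCD2.0.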

Additional observations from a re-analysis of the deposited data

Results flagged for a closer look

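In 8 of 42 groups of 5 embryos examined, 1 embryo lay far from the other 4 (a gap of over 0.71 of the range of the group). For normally distributed values chance gives about 1 in 20, that is 2.1. Many of the values here are low counts, for which that rate need not hold, so the 8 groups are a description. *GBX2* had 2.33 (2 reads) in ko3 and was at 0 in the other *SOX2* KO embryos, and *IRX6* had 2.33 (3 reads) in nc4 and was at 0 in the other WT embryos. *HOXB4* had 20.9 in nc3 and at most 10.4 in the other WT embryos, *HOXC4* had 18.9 in nc3 and at most 10.1, and *LHX2* had 17.9 in nc3 and at most 10.9. In *SOX2* KO embryos, *HOXC4* had 1.32 (1 read) in ko2 and at least 20.04 elsewhere. *NKX6-2* had 41.9 in ko3 and at most 19.6 elsewhere, and *SIX5* had 64.0 in ko3 and at most 25.1 elsewhere. Of the 8 groups, 3 were set apart by nc3, in which 37.0% of the reads were of *RN18S1*, the highest share in WT, and 3 by ko3.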

How the results depend on the processing

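The count of members called higher, 5 in the main analysis, was 0 with the *RN18S1* share as a covariate, 1 with quantile normalization and 12 with sample quality weights, and lay between 4 and 6 under the other alternatives of scaling, pseudocount, filter, threshold and test. Leaving out 1 embryo gave 3 to 9: 3 without ko1, ko3, ko5 or WT replicate 1, 8 without ko2 and 9 without ko4. The share of all genes called higher moved in the same way. It was 4.40%, 5.91%, 3.84% and 5.43% in the fits with 3, 10.1% without ko2 and 15.2% without ko4. The count called lower was 0 in all of these and 1 with quantile normalization. Of the cofactor and other homeobox genes, 12 were called, 3 with the covariate, 20 with quality weights and 6 to 17 with 1 embryo left out (6 without ko5 or WT replicate 1, 7 without ko1 or WT replicate 2). With quantile normalization 29 of the 63 members above 0 turned below it. Among the members named by the rule, signs turned for some that were not called: with quantile normalization *HOXC10* (-0.21), *HOXC9* (-0.0527), *HOXD9* (-0.0497) and *SIX5* (-0.0389), and with the covariate *HOXC4* (-0.31), *HOXC9* (-0.0132), *HOXD9* (-0.14) and *SIX5* (-0.47); with 1 embryo left out *SIX5* ranged from -0.20 without ko3 (-0.0780 without WT replicate 2) to its highest value of 0.40. The cause was not tested. The mean number of members detected was higher in *SOX2* KO by 11.2, and by 9.80 to 13.4 with 1 embryo left out. The sum of normalized read counts over the members was higher by 172, by 244 without *TBX3* and by 59.4 with equal totals. The median member had a mean normalized read count of 3.11, which limits the differences that could be detected. No paired analysis was possible because the *SOX2* KO columns carry no replicate numbers of their labels.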
